A study of Homo sapiens with 12 samples.

Results

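In K562 cells, 602 stretches of chromatin held 3 to 7 GATA1 intervals lying close together with no TAL1 interval among them. These GATA1 groups without TAL1 are the subject here. They were chosen by membership in a pair of deposited peak lists, GATA1 and TAL1 in control cells. The distinct intervals of both lists were pooled, the mitochondrial sequence was left out, and intervals on a chromosome were grouped wherever the gap to the next did not exceed 12.5 kb. A group was kept if it had 3 to 7 intervals, all in the GATA1 list and none in the TAL1 list. The 602 groups hold 2068 intervals, of 24654 distinct intervals and 2220 groups of 3 to 7 in all.

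GATA1 is a zinc finger transcription factor that drives red cell and megakaryocyte genes. TAL1, a basic helix-loop-helix factor, is recruited beside GATA1 at many erythroid enhancers through the adaptor proteins LMO2 and LDB1. GATA1 is also known to occupy sites without TAL1, including sites near genes that it represses, so sites with and without TAL1 are often compared in erythroid cells.

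K562 is an erythroleukemia line, and control K562 cells were profiled by chromatin immunoprecipitation and sequencing with 1 library per factor. Nuclei were digested with micrococcal nuclease, so the precipitated fragments had the size of 1 or 2 nucleosomes. The series has 12 libraries from control, GATA1 knockdown and TAL1 knockdown cells, and the other 10 were not analysed here. The labels do not say whether control cells received a vector. The title of the TAL1 library carries the tag Sp, which the GATA1 title lacks, and the titles do not explain it. With 1 library per factor there is no replicate error, and the exact (Clopper-Pearson) 95% intervals below cover counting over the listed groups only. Neighbouring groups are not independent. The lists give no height, score or read number, so depth is unknown and an interval missing from the TAL1 list is a missing list entry, not shown absence of TAL1. Positions are those of hg19. An hg19 sequence and gene annotation were not used here, so groups are named by cytogenetic band.

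Most GATA1 intervals were not in the TAL1 list, while most groups of 3 to 7 held a TAL1 interval. A GATA1 interval counted as shared if the TAL1 list held the same start and end, which was so for 7029. Of all 22769 GATA1 intervals, 69.1% were not in the TAL1 list, and of the 2220 groups of 3 to 7 intervals, 27.1% (25.3 to 29.0%) held no TAL1 interval. The 2068 intervals made up 13.1% of the 15740 GATA1-only intervals (12.6 to 13.7%). Another 38.2% of GATA1-only intervals stood alone, 2832 intervals lay in GATA1-only pairs, and 19.8% lay in groups of 3 to 7 that also held TAL1.

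The number of groups without TAL1 exceeded the number that the overall TAL1 share gives. Only the 1778 groups made wholly of GATA1 intervals could be members. If the TAL1 labels were spread over all GATA1 intervals regardless of position, a mean of 475.8 of these 1778 groups would hold none. The lists had 602, a ratio of 1.27 (1.18 to 1.35). This mean follows from the group sizes in closed form. It is a description with no test, since the same labels chose the members. With intervals within 2 kb first joined to 1 site, 209 groups of 3 to 7 sites lacked TAL1 and the ratio was 0.887, on the other side of 1. A site there counted as TAL1 if any of its intervals did. The opposite composition was also more frequent: in 75 groups every GATA1 interval was in the TAL1 list, where the overall share gives 34.1.

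Small groups made up most of the set. Groups of 3 numbered 422, groups of 4 numbered 119, groups of 5 numbered 43, groups of 6 numbered 15 and groups of 7 numbered 3. Among groups of 3 made of GATA1 intervals, 42.2% (39.1 to 45.3%) lacked TAL1, where the overall share gives 33.0%. Among groups of 4 the share was 26.9% (22.8 to 31.3%), beside 22.8%. For groups of 5 it was 22.6% (16.9 to 29.2%), beside 15.8%. At 6 and 7 intervals the shares were 14.3% (8.22 to 22.5%) and 7.32% (1.54 to 19.9%), beside 10.9% and 7.54%, and these exact intervals are wide. The difference was not tested at any size, since the same labels chose the members. Among the 1000 groups of 3, exactly 1 TAL1 label occurred in 322, where the overall share gives 442.6. Groups of 3 thus had fewer mixed compositions with 1 TAL1 interval, and more with none or with 3.

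**Figure D1:**
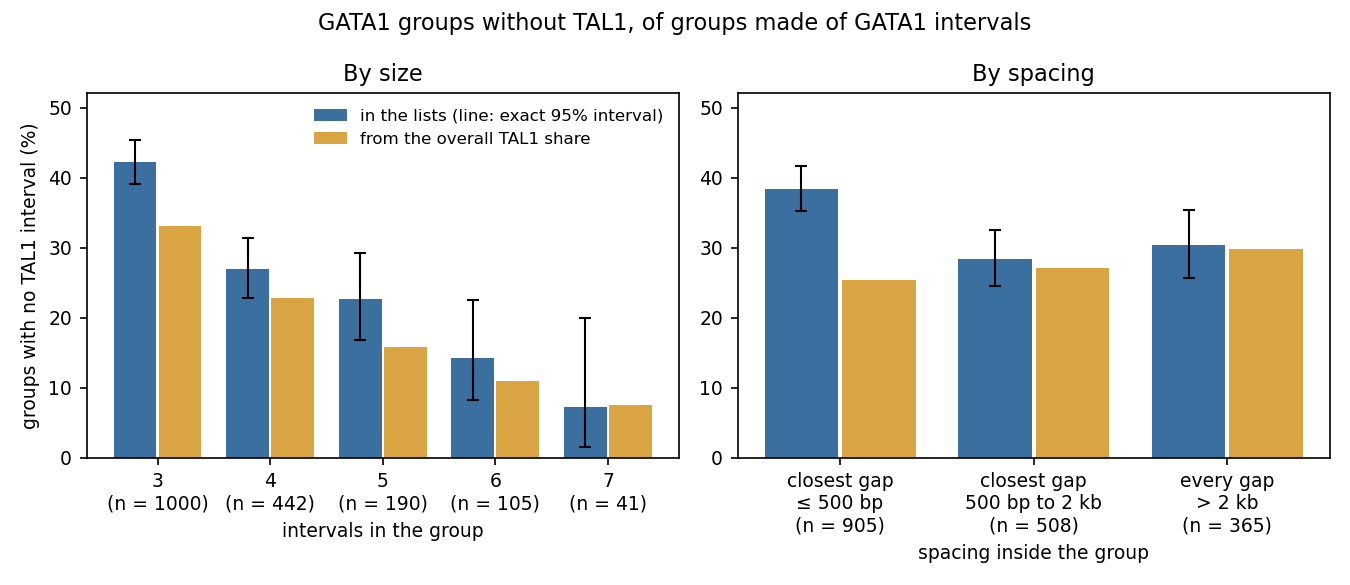
Share of groups with no TAL1 interval (percent, vertical axis) among groups made wholly of GATA1 intervals, by number of intervals (left) and by spacing (right). Blue bars are the lists with exact 95% intervals and yellow bars the share that the overall TAL1 share gives. The bars differ most where the closest gap was at most 500 bp, 38.3% beside 25.4%.

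By spacing, the ratio was highest in groups with closely spaced intervals. The 3 classes of spacing were added after their values were seen, and the same labels chose the members, so the ratios are a description. Where the closest neighbours of a group were at most 500 bp apart, 347 of 905 groups lacked TAL1 (38.3%, 35.2 to 41.6%), and the overall TAL1 share gives 229.5, a ratio of 1.51. Where the closest gap was over 500 bp and up to 2 kb, 144 of 508 groups lacked TAL1, beside 137.4, a ratio of 1.05. Where every gap was over 2 kb, 111 of 365 groups lacked TAL1 (30.4%, 25.7 to 35.4%), beside 108.8, a ratio of 1.02 (0.863 to 1.19). The 3 classes had a similar overall share of intervals in the TAL1 list, 32.3%, 33.0% and 31.9%. In the tight class, TAL1 labels were therefore gathered into fewer groups: 51 groups were in the TAL1 list at every interval, where the overall share gives 15.5. In the class with every gap over 2 kb there were 6 such groups, beside 8.68.

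The tight class also held narrower intervals, and shared intervals were wider than GATA1-only ones in these lists. Its GATA1-only intervals had a median width of 220 bp, beside 279.5 bp in the class with every gap over 2 kb. With the TAL1 share taken separately for each of 10 width classes, the number given for the tight class was 266.4 and the ratio 1.30. The ratio was 1.02 in the middle class and 1.10 in the widest spaced, where 111 groups stood beside 100.5. With the TAL1 share of each chromosome arm it was 1.47 in the tight class and 1.01 in the widest spaced. Separate sites at most 500 bp apart and pieces of 1 enriched stretch cannot be told apart in these lists. The differences between spacing classes were not tested.

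At sizes 3 to 6 the share without TAL1 was higher in tight groups. Among groups of 3 with a closest gap of at most 500 bp, 221 of 440 lacked TAL1 (50.2%, 45.5 to 55.0%), beside 201 of 560 (35.9%, 31.9 to 40.0%) of the others. Among groups of 4 the shares were 31.6% (25.8 to 38.0%) and 21.5% (16.0 to 27.7%). Among groups of 5 they were 29.2% (21.6 to 37.8%) and 8.33% (2.76 to 18.4%). Groups of 6 gave 12 of 64 and 3 of 41. The same labels chose the members, so these shares are a description, and the differences were not tested. They take no account of the narrower intervals in tight groups. At 7 intervals the order turned, with 1 of 34 tight groups and 2 of 7 others.

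Groups without TAL1 varied widely in span. Their median span was 9.46 kb (8.80 to 10.1 kb), with an interquartile range of 4.72 to 13.05 kb and a maximum of 35.0 kb. At matched sizes the span was 7.70 kb for 3 intervals, 11.6 kb for 4 and 15.3 kb for 5. Groups of the same sizes that held TAL1 spanned 8.23, 13.3 and 16.0 kb. The 95% intervals of these medians overlapped at each of these sizes, and the differences were not tested. For 6 intervals the spans were 20.4 and 22.5 kb. Intervals covered a median of 10.4% of the span of a group, beside 10.2% in groups holding TAL1.

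Short gaps were frequent inside the groups. The median of the 1466 gaps was 2001 bp, and 30.6% of gaps (28.2 to 33.0%) were at most 500 bp. Between GATA1-only neighbours in groups that held TAL1, 24.7% (22.3 to 27.3%) were at most 500 bp. Between a GATA1-only and a shared neighbour the share was 12.2% (10.8 to 13.7%), and between shared neighbours 37.5% (34.3 to 40.7%). Like neighbours, with or without TAL1, thus had higher shares within 500 bp than unlike neighbours, a difference that was not tested. With intervals within 2 kb counted as 1 site, 119 groups without TAL1 (19.8%, 16.7 to 23.2%) shrank to a single site, 277 to 2 sites and 169 to 3. Among groups holding TAL1, 11.7% (10.2 to 13.4%) shrank to a single site. These shares are not matched for size: 422 of 602 groups without TAL1 had 3 intervals, beside 785 of 1618 holding TAL1. Among groups of 3, 24.9% (20.8 to 29.3%) and 18.9% (16.2 to 21.8%) shrank to a single site. For 4 intervals the shares were 8.40% and 8.14%, and for 5 they were 6.98% and 2.93%. The exact intervals overlapped at each of these sizes, and the differences were not tested.

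Intervals of these groups were as narrow as other clustered GATA1-only intervals. Their median width was 241 bp (interquartile range 152 to 371 bp). GATA1-only intervals in groups that held TAL1 measured 238 bp (152 to 345 bp), those in GATA1-only pairs 266.5 bp, and those standing alone 294 bp (188 to 426 bp). Shared intervals were wider, at 353 bp in groups of 3 to 7 and 404 bp alone. The sources used here do not say how coordinates came to be identical in both lists, and a merging step could itself widen shared intervals.

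**Figure D2:**
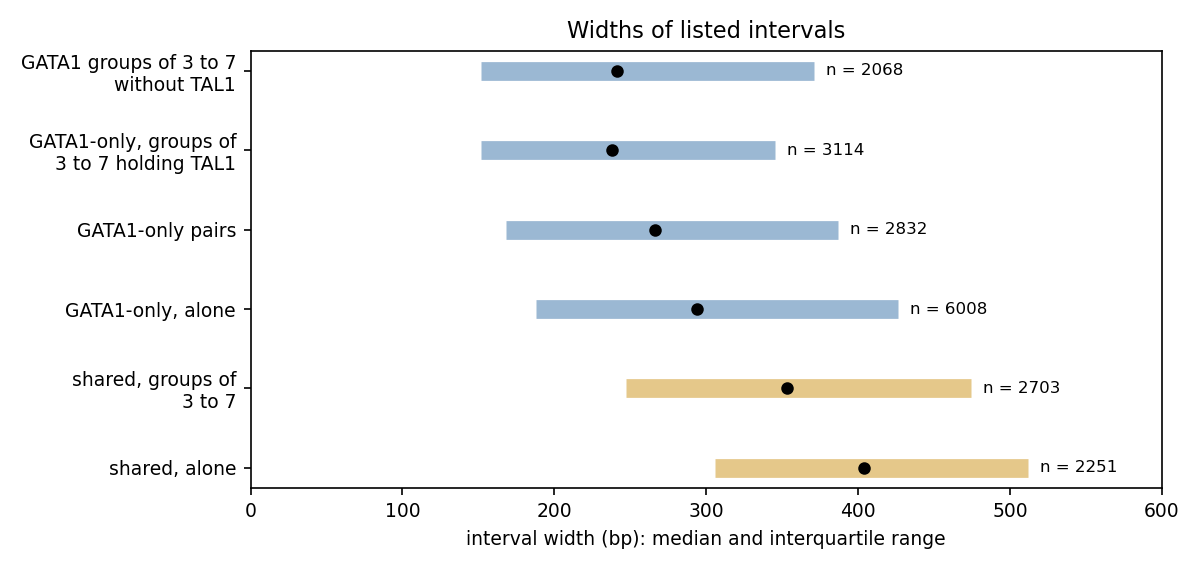
Widths of listed intervals (bp, horizontal axis) for 6 classes, with dots at the median and bars over the interquartile range. The 2068 intervals of GATA1 groups without TAL1 have a median of 241 bp, beside 238 bp for GATA1-only intervals in groups holding TAL1 and 294 bp for those standing alone.

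Width also went with spacing inside the groups. The 817 intervals whose nearest neighbour in the group was at most 500 bp away had a median width of 212 bp. The 804 intervals over 2 kb from the nearest had 278 bp. In groups holding TAL1 the GATA1-only medians were 201 and 265 bp. The smallest listed width, 85 bp, was reached by 3.38% of the intervals (2.65 to 4.26%). It was reached by 3.02% (2.45 to 3.68%) of GATA1-only intervals in groups holding TAL1. For GATA1-only intervals standing alone the share was 2.90% (2.49 to 3.35%).

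Widths varied strongly within a group. The widest interval of a group had a median of 411.5 bp and the narrowest 135 bp, and the ratio between them had a median of 2.75 and a maximum of 11.6. The widest interval had no fixed place: in groups of 3 it was the first along the chromosome in 137, the middle in 135 and the last in 150. The widest intervals of all were 1125 bp at 7q36.1, 1114 bp at 6q21, 1005 bp at 3p22.3, 973 bp at 8q24.21 and 927 bp at 1q31.2. At 7q36.1 (chromosome 7, 148636538 to 148639595) the flanking intervals of the group measured 239 and 97 bp. At 8q24.21, the band that carries the MYC oncogene, the group (chromosome 8, 128747476 to 128754842) had intervals of 318, 387 and 973 bp, and the nearest TAL1 interval lay 58.1 kb away.

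Beyond the joining distance, the share of TAL1 intervals around these groups was close to that around other groups. The first interval outside a group was in the TAL1 list for 401 of 1203 flanks, or 33.3% (30.7 to 36.1%). For groups of 3 to 7 that held TAL1 it was 34.0% (32.3 to 35.6%), and for GATA1-only intervals standing alone 34.0% (33.2 to 34.9%). Among the 601 groups with an interval on both sides, neither flank was a TAL1 interval in 275, 1 flank was in 251 and both were in 75. The next group of 3 to 7 along the chromosome also lacked TAL1 in 29.4% of cases after a group without TAL1 (25.7 to 33.2%). After a group that held TAL1 it did so in 26.4% (24.2 to 28.6%). These 95% intervals overlap, and the difference was not tested. The rule used no label of an interval outside the group.

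The nearest TAL1 interval was a median of 57.7 kb away (50.2 to 64.1 kb; interquartile range 28.3 to 112.4 kb). The rule sets the lower end of this distance. GATA1-only pairs lay 66.8 kb (62.7 to 72.1 kb) and GATA1-only intervals standing alone 73.0 kb (70.7 to 75.2 kb) from TAL1. The groups also lay in denser surroundings than those standing alone, with a median of 41.8 kb to the first interval outside, beside 59.2 kb. Groups of 3 to 7 that held TAL1 had a similar median, 39.8 kb. Distance to TAL1 was 62.2 kb (53.8 to 69.0 kb) for groups of 3, 52.7 kb (40.9 to 63.1 kb) for groups of 4 and 37.7 kb (29.9 to 68.7 kb) for groups of 5. The 95% intervals of these medians overlap. Of the 602 groups, 121 (20.1%) had TAL1 within 25 kb and 168 (27.9%) had none within 100 kb.

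**Figure D3:**
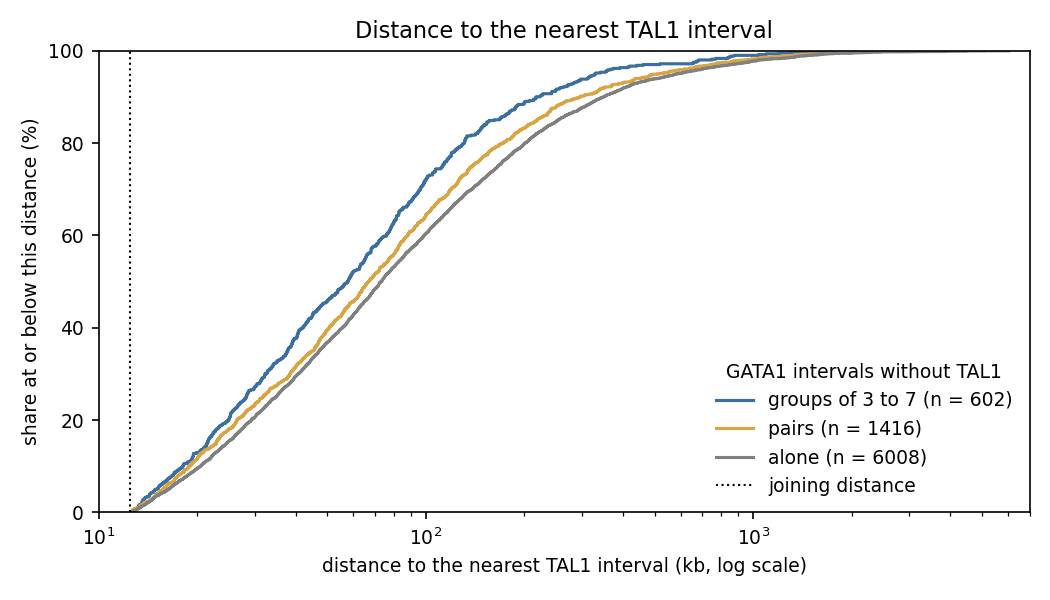
Cumulative share (percent, vertical axis) of GATA1 groups without TAL1, GATA1-only pairs and GATA1-only intervals standing alone, by distance to the nearest TAL1 interval (kb, log scale). All curves start at the joining distance, and the groups reach the middle of their distances at 57.7 kb, before the pairs (66.8 kb) and the single intervals (73.0 kb).

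Some groups lay far from any TAL1 interval. The most remote was at 14q22.1 (chromosome 14, 53161477 to 53174143), with 3 intervals and TAL1 no closer than 1768 kb. The next were at 4p15.33 (1476 kb), 5p15.31 (1305 kb), 2q36.2 (1200 kb) and 3p25.3 (1094 kb), each with 3 intervals. Altogether 18 groups (2.99%, 1.78 to 4.68%) were over 500 kb from TAL1, beside 6.08% (5.48 to 6.71%) of GATA1-only intervals standing alone. At the near end, groups at 1p31.3, 11q14.1, 4q31.1, 7p21.1 and 7p14.3 had TAL1 at 12.6, 12.7, 12.9, 12.9 and 12.99 kb, just past the joining distance.

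The largest groups, with 6 or 7 intervals, numbered 18 and differed widely in layout. The 3 groups of 7 were at 1p13.3 (chromosome 1, 109626662 to 109642960), 1q31.2 (chromosome 1, 193073703 to 193091649) and 6q22.32 (chromosome 6, 126264148 to 126284483). They spanned 16.3, 17.9 and 20.3 kb, with TAL1 at 34.2, 25.1 and 70.5 kb. The group at 6q22.32 had narrow intervals throughout, from 85 to 257 bp. The group at 1q31.2 ran from 85 to 927 bp, and on its farther side no TAL1 interval lay within 2776 kb.

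Among the 15 groups of 6, the tightest was at 17q12 (chromosome 17, 37023983 to 37029170). Its intervals measured 135, 273, 203, 164, 269 and 104 bp within 5.19 kb, no gap exceeded 1414 bp, and TAL1 lay 21.5 kb away. The group at 16p13.3 (chromosome 16, 225000 to 231630) had a paired layout within 6.63 kb. Its first 3 intervals measured 247, 85 and 291 bp, separated by 62 and 61 bp. After 5324 bp came intervals of 104, 87 and 206 bp, separated by 87 and 77 bp, and the nearest TAL1 interval lay 29.8 kb from the group. The band 16p13.3 carries the alpha-globin genes, which code for a chain of hemoglobin. No gene is assigned to the intervals here.

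The other large groups were looser. At 10q23.1 (chromosome 10, 82202831 to 82226982) every gap was at least 3025 bp, so its 6 intervals were 6 separate sites at 2 kb. It was the only group of 6 or 7 so spread. The group at 10q23.2 (chromosome 10, 88515394 to 88535261) stood out by its distance from TAL1, 676.2 kb on the nearer side and 725.1 kb on the other. Chromosome 6 held 6 of the 18. These lay at 6p22.2, 6p25.2 (2 groups), 6p21.33, 6p22.1 and 6q22.32, with TAL1 at 32.1 to 144.0 kb. For comparison, 6p and 6q held 52 and 21 of the 602 groups without TAL1. They held 150 and 77 of the 2220 groups of 3 to 7. The remaining groups of 6 were at 15q24.2, 1q21.3, 22q11.21, 7q34, 21q22.13 and 10p11.22, with spans of 12.5 to 32.6 kb and TAL1 at 32.3 to 107.0 kb.

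**Figure D4:**
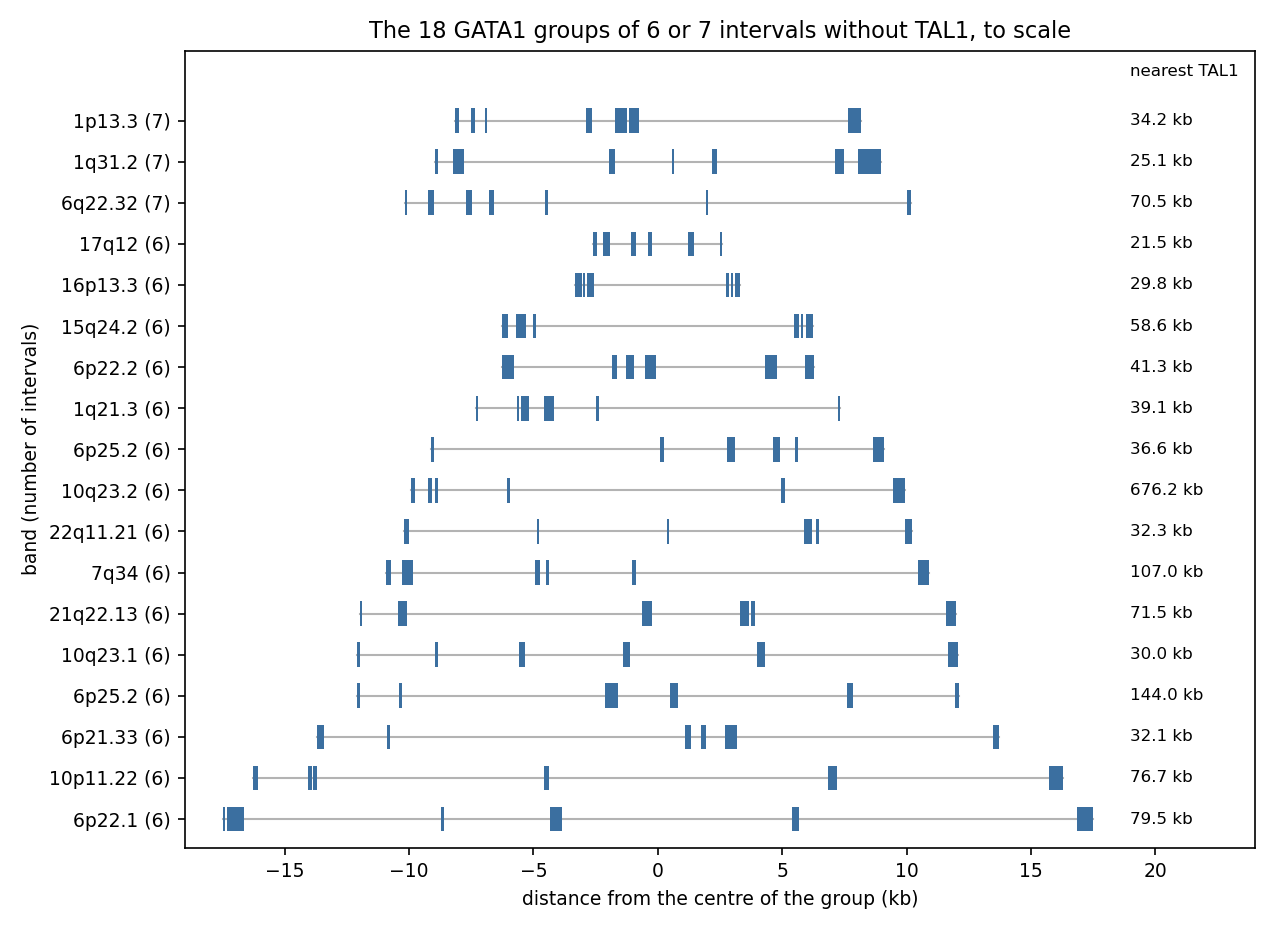
Layout of the 18 GATA1 groups of 6 or 7 intervals without TAL1, with distance from the group's centre in kb (horizontal axis) and 1 row per group, named by band. Blue blocks are intervals drawn to scale, so the shortest gaps are hard to see, as at 16p13.3. Distances to the nearest TAL1 interval stand on the right and run from 21.5 to 676.2 kb.

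The 5 shortest groups had 3 intervals each. At 10q23.31 the 3 intervals lay within 478 bp, at 3q25.2 within 483 bp, at 17q11.2 within 659 bp, at 5q12.1 within 697 bp and at 1q31.3 within 768 bp. At 3q25.2 (chromosome 3, 152374220 to 152374702) intervals of 133, 116 and 154 bp were separated by 43 and 37 bp and covered 83.4% of the span. A gap of this size is shorter than the DNA of a nucleosome. The longest groups were at 6p22.1 (35.0 kb), 10p11.22 (32.6 kb), 6p21.33 (31.1 kb, 4 intervals), 12q21.2 (30.5 kb) and again 6p21.33 (27.4 kb, 6 intervals).

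The groups were spread over most chromosome arms. Of 42 arms with any group of 3 to 7, 39 had at least 1 without TAL1. Most were on 1p (59), 6p (52), 1q (42), 7q (41) and 5q (29), which together held 37.0% of them and 32.8% of all groups of 3 to 7. The exceptions were 17p with 0 of 6, Xp with 0 of 9 and 21p with 0 of 1, counts that allow shares of up to 45.9%, 33.6% and 97.5%. On Xp, 55.6% of GATA1 intervals were not in the TAL1 list, the background there. Per megabase, 6p had 0.886 groups without TAL1 and 1p had 0.486, beside a median of 0.185 over arms. All groups of 3 to 7 were also dense on these arms, at 2.56 and 1.63 per megabase, beside 2.60 on 19p.

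As a share of the groups of 3 to 7 on an arm, those without TAL1 differed between arms, with wide exact intervals. Among the 33 arms with at least 20 such groups the share ran from 17.9% on 11p to 35.3% on 7q (26.7 to 44.8%), with 34.7% on 6p (27.1 to 42.9%). The exact interval left out the overall share on 0 of 42 arms, and the differences between arms were not tested. On 6p and 7q the background of GATA1 intervals without TAL1 was 73.7% and 72.6%, above the 69.1% of all arms. Share and background did not always go together. On 8q the share was 35.2% with a background of 66.3%, and on 15q it was 24.3% with 72.0%.

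**Figure D5:**
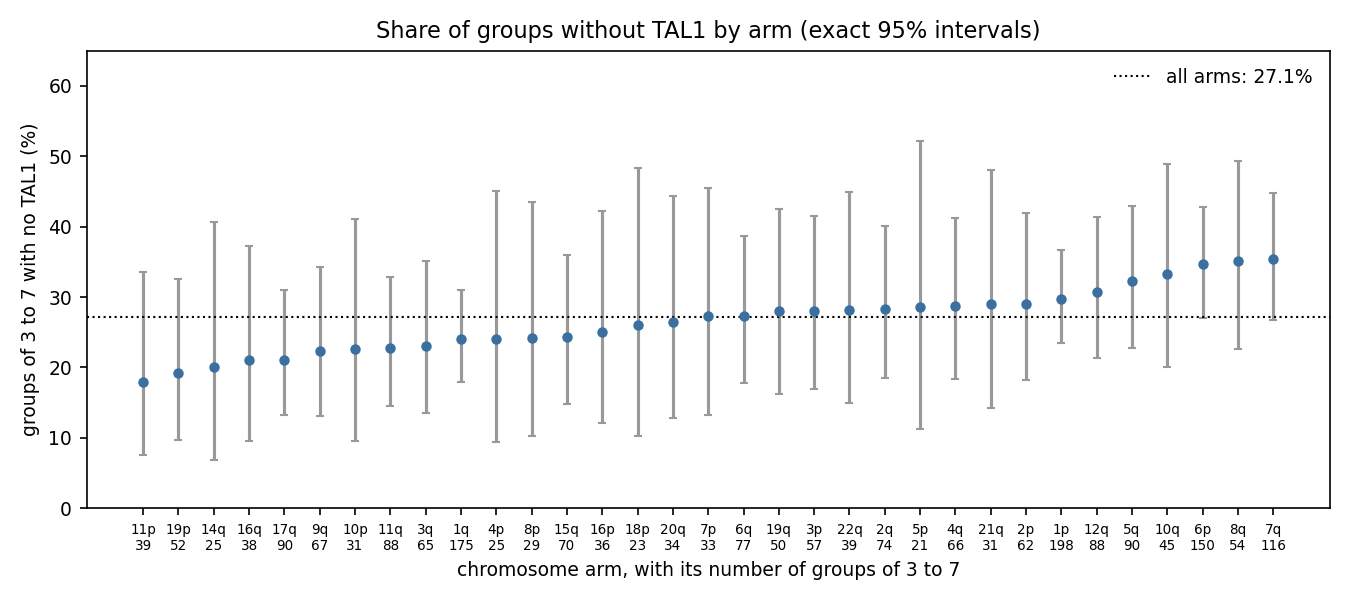
Share of groups of 3 to 7 that held no TAL1 interval (percent, vertical axis) on the 33 arms with at least 20 groups, with exact 95% intervals. The number of groups stands under each arm. Shares run from 17.9% on 11p to 35.3% on 7q, and every interval spans the overall 27.1% marked by the dotted line.

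Giemsa staining, a coarse guide to base composition and chromatin, gave like values in most classes. The share of groups without TAL1 was 27.2% (24.8 to 29.7%) in unstained bands and between 24.9% and 27.1% in the lighter stained classes. It was 35.9% (47 of 131, 27.7 to 44.7%) in the darkest bands. GATA1 intervals without TAL1 made up 69.4% in unstained and 70.6% in the darkest bands. The difference was not tested.

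By band, the groups were thinly spread. They were centred in 319 bands, with 1 group in 178 of them and 5 or more in 19. Band 1p36.11, which carries the Rh blood group genes, had most, 10 of its 19 groups of 3 to 7. Bands 22q11.21, 6p22.1 and 7q22.3 had 9 each, of 19, 20 and 16. At 6p21.33, which carries genes of the major histocompatibility complex, 7 of 11 groups lacked TAL1 (63.6%, 30.8 to 89.1%), or 4.12 per megabase. There, 11 of 77 GATA1 intervals were in the TAL1 list. Bands 1q32.1, 2q31.1 and 7q36.1 had 7 each, of 24, 17 and 14 groups. Bands 1q42.13, 5q31.1, with its cytokine genes, and 7q34, with the T cell receptor beta locus, had 6 each, of 11, 16 and 12. Bands 17q25.1, 1p13.2, 1p32.3 and 1p34.3 had 5 each, of 11, 11, 12 and 13. Bands 6p22.3, 6q25.3, 19q13.2 and 19p13.3 also had 5 each, of 14, 15, 16 and 24. Of these 19 bands, 1q32.1 (29.2%), 19q13.2 (31.2%) and 6q25.3 (33.3%) were near the overall 27.1%, and 19p13.3 (20.8%) was below it. The bands were chosen for their number of groups without TAL1, so their shares are a description.

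Most stretches between consecutive TAL1 intervals that held such a group held only 1. The 602 groups fell in 531 stretches free of TAL1, of which 468 held 1 group, 55 held 2 and 8 held 3. Counted by group, 110 of the 602 lay in stretches with 2 and 24 in stretches with 3. At 6p22.1, a stretch of 342.3 kb without TAL1 held 24 GATA1 intervals, 12 of them in 3 groups. At 19q13.2 a stretch of 356.7 kb held 18 GATA1 intervals with 3 groups, and at 7q22.3 one of 292.3 kb held 16 with 3 groups. The remaining 5 were at 6p12.2, 1q42.13, 7q36.1, 1q31.3 and 6q25.3, with 10 to 16 GATA1 intervals each.

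At the edges of the rule, few groups had a gap close to the joining distance, but another joining distance changed many. At 5 kb, 308 of the 602 still gave a group of 3 or more without TAL1. At 25 kb, 165 came to hold TAL1. Just under the size range lay 1416 GATA1-only pairs, and just over it 3 groups: 8 intervals at 6p22.2, 9 at 11q21 and 10 at 17q21.32. The group at 17q21.32 (chromosome 17, 46590380 to 46633404) spanned 43.0 kb with TAL1 at 14.3 kb. A gap over 12 kb was found inside 24 members, the largest at 12494 bp. Outside, 15 members had another interval closer than 13 kb, in 5 of them a TAL1 interval. A single TAL1 interval kept out 632 groups of 3 to 7, and in 393 of these it was the first or last interval of the group. In 97 of the 632 it was not in the GATA1 list. Without it such a group would have 1 interval fewer and might fall outside the rule.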

How the data were processed

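Per the submitters' processing notes, Trimmomatic, Bowtie2, MACS2, deepTools and build hg19 were used, without versions or thresholds. The deposited files are 3-column lists of peak positions, 22769 for GATA1 and 8918 for TAL1, with no header or value per peak. The calling mode, and how both lists came to share exact coordinates, are not given in the sources used. The 4 TAL1 peaks on the mitochondrial sequence were left out. The groups came from sample titles. Intervals were joined and counted in Python 3.11.15 (numpy 2.4.6, pandas 2.3.3, scipy 1.17.1), and figures drawn with matplotlib 3.10.9. Bands were those of circlize 0.4.16 and chromosome lengths those of GenomeInfoDb 1.38.1, both hg19. A group belongs to the band of its centre. Intervals for medians are 95% order-statistic intervals. No test was made: each factor has 1 library, and p-values over intervals would not compare conditions. Grouping and the closed-form mean were checked on planted lists. The reference tables at hand are of another build, so no gene or sequence was matched. Members and descriptions were chosen with earlier results of these data known. Groups named are those of 6 or 7 intervals, the 5 shortest, longest, nearest to and farthest from TAL1, the 5 with the widest interval, the leading or empty arms and the bands with 5 or more. Stretches free of TAL1, the 3 larger groups and the 3 classes of spacing were added after their values were seen.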

Additional observations from a re-analysis of the deposited data

How the results depend on the processing

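The number of groups without TAL1 was 602, with 653 at a joining distance of 25 kb, 605 with no upper size and 518 without chromosomes 6 and 22. It moved to 387 at 5 kb, 73 when intervals under the pooled median width were dropped (wide intervals), 209 with intervals within 2 kb joined to 1 site, and 326 with no TAL1 within 50 kb. At 25 kb, 165 of the 602 came to hold TAL1. The share of groups without TAL1 was 27.1%, and 29.9%, 16.4% and 18.4% at 5 kb, among wide intervals and with joined sites. The ratio to the number from the overall TAL1 share was 1.27, then 1.17 among wide intervals and 0.887 with joined sites, where it fell under 1. A site counts as TAL1 if any of its intervals does, and the cause was not tested. Ratios added after the data were seen were 1.37 with the TAL1 share of groups of 3 to 7, 1.02 where every gap is over 2 kb, 1.18 with width classes and 1.24 with arms. The median width was 241 bp, and 216, 255, 407 and 327 bp at 5 kb, at 25 kb, among wide intervals and with joined sites. The median span was 9.46 kb, and in the same order 3.40, 18.2, 14.3 and 15.6 kb, with 8.02 kb where no TAL1 lay within 50 kb. The distance to TAL1 was 57.7 kb, and in that order 46.6, 79.5, 47.7, 46.6 and 102.0 kb. Several of these move by construction, since joining distance and width filter set them. Of 44 alternative values, 19 stayed within counting error or within 1.5 times for the number. Depth is unknown, so which TAL1 intervals were missed cannot be stated.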
